A study of Mus musculus with 13 samples.

Results

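The gene expression of mouse oocytes was followed for 6 h after γ-irradiation with 0.2 Gy, the lower of the 2 doses in the series. The 5 libraries of this time course were chosen by their labels alone, out of 13 libraries in all, and form 1 ordered series with 1 library at each time: 0 h, 1 h, 2.5 h, 4 h and 6 h. All of them came from oocytes of CD-1 mice, an outbred laboratory strain with no gene altered, and are labelled as the third generation. The other 8 libraries were made after 0.5 Gy, with a first and a second generation library at 0, 1 and 4 h and a second generation library alone at 2.5 and 6 h. Per the study's methods, ovaries of 5-day-old pups were cultured, irradiated with a caesium source and dissolved in trypsin, and the oocytes of 4 ovaries were combined for each time point. The study's results describe the 0 h sample as taken before irradiation, while its methods list 0 h among the times after irradiation. As 0.2 Gy was used in the third generation alone, the dose and the generation cannot be told apart, and a p-value within 0.2 Gy measures the scatter of single libraries around a trend.

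Oocytes of the newborn mouse rest in an arrested meiotic prophase and carry large amounts of TAp63α, a p53 family transcription factor that is kept in an inactive dimer. DNA double-strand breaks activate the kinases ATM and CHK2, then CK1 adds further phosphates, and TAp63α opens into an active tetramer that binds p53 response elements. Its targets include brakes on p53 itself (Mdm2, Ccng1), cell cycle inhibitors (Cdkn1a) and a pair of BH3-only genes, Pmaip1 for NOXA and Bbc3 for PUMA, whose products start apoptosis at the mitochondria. The comparison asks how far the same genes respond when fewer breaks are made.

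Response elements of the p53 family can hold the core letters CATG in a pair of copies. The promoters of the 33 genes that the study called higher from 2.5 h or from 4 h on after 0.5 Gy, named late-rising genes here, were searched for CATGNNNNNNCATG, which reads the same on both strands. RefSeq promoters (GRCm38.p6, 250 bases before to 50 bases after the gene start) were given for 24 of the 33 genes, and 3 of these 24 genes (12.5%) held the motif, against 0.833% of the 27025 genes with any promoter. The 3 windows are shown because they tie the motif to genes of the time course. Capitals mark the paired cores, on the plus strand.
Cdkn1a (chr17:29090908-29090967): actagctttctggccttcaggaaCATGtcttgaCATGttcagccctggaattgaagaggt
Igfals (chr17:24877629-24877688): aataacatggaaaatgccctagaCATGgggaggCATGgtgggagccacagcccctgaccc
Tmem140 (chr6:34862983-34863042): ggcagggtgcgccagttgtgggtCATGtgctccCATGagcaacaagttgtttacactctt
The search covered this form of the core alone, and set no condition on the bases around it. A match therefore describes the letters, and neither a full response element nor binding. Of the 64 known p53 targets that the study lists, 51 had a promoter and 1 of them, Cdkn1a, held the motif, while none of the 16 apoptosis genes and none of the 28 DNA repair genes with a promoter did.

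Levels are given as CPM, the estimated reads of a gene divided by the scaled read total of its library in megareads. The libraries of 0.2 Gy held 25263647 to 30430104 estimated reads. Before any gene is considered, the 0 and 1 h libraries stood apart from the later 3: their mean fragment length was 171 and 193 bases against 277 to 300 bases, and 27617 and 27836 genes had at least 10 reads against 23134 to 23690. Any gradual change therefore moves together with fragment length and gene number. Their part in it was not tested beyond trend fits with effective-length offsets, whose counts are given below. For this reason each gene is given both as a trend over all 5 libraries and as the 4 and 6 h libraries against the 2.5 h library, whose fragments were alike. Of the cell type lists, oocyte markers had the highest summed level in each library, at 9107 to 11974 CPM over 22 genes. All 22 had reads, as had every member found of the other cell type lists, so reads alone do not mark a cell type. Stroma (2127 to 3581 CPM), granulosa cells (1413 to 2549 CPM) and red blood cells (859 to 4183 CPM) were present as well, while leukocyte markers summed to 41.2 to 63.1 CPM. In such bulk samples fewer cells of a type and less RNA per cell cannot be told apart.

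**Figure D1:**
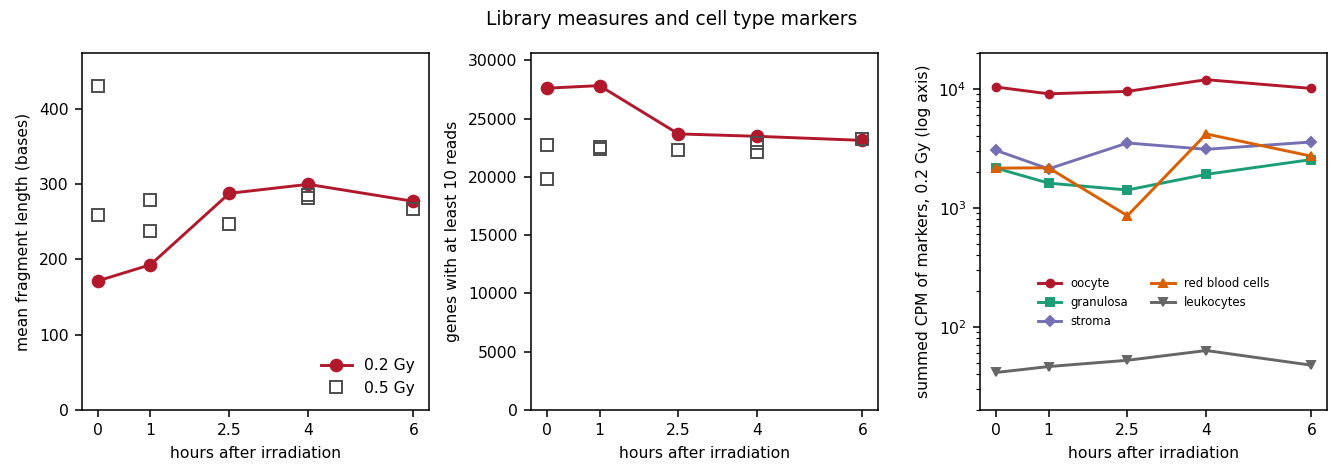
Mean fragment length in bases (left) and number of genes with at least 10 reads (middle) for each library against hours after irradiation, filled circles for 0.2 Gy and open squares for 0.5 Gy; on the right, summed CPM of marker genes in the 0.2 Gy libraries on a log axis. The 0 and 1 h libraries of 0.2 Gy have the shortest fragments and the most genes of the series, and red blood cell markers dip to 859 CPM at 2.5 h.

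A straight line over time was fitted to each of 26926 genes, and its slope is given as the fitted log2 change over 6 h. edgeR's quasi-likelihood test called no gene (0%), the smallest adjusted p being 0.259 with 3 residual degrees of freedom. At an unadjusted p under 0.05, 1386 genes were higher with time (5.15%) and 1292 were lower (4.8%). DESeq2, run as the other tool, called 155 genes higher (0.576%) and 110 lower (0.409%), and limma voom called 0. No change over time is therefore called by the main test, and the genes below are described by their levels, with DESeq2's calls named as such. List counts of this trend are to be set against the shares of all genes. These were 5.15% higher and 4.8% lower unadjusted, and 0.576% and 0.409% with DESeq2. Independent of any test, 22.3% of the genes had both late libraries (4 and 6 h) above both early ones (0 and 1 h), 25.2% had both below, 1.45% were higher at every step and 1.29% lower at every step. Protein-coding genes, which make up most of the lists, leaned the other way. Of 18664 tested, 4800 had both late libraries above and 3974 both below. Among them 1156 were higher and 672 lower at an unadjusted p under 0.05.

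Of 4 genes that hold p53 and its relatives in check, Mdm2 and Ccng1 were higher with time at an unadjusted p under 0.05, and both also when any 1 library was left out. Mdm2, which encodes the ubiquitin ligase that marks p53 for destruction, stood at 50.1, 58.2, 102, 255 and 229 CPM in the order of the 5 time points. Its early libraries lay lowest, the 2.5 h library in between, and both late libraries more than 4-fold above 0 h. The fitted change was 2.62 ± 0.41 (log2, SE; edgeR adjusted p = 0.320, DESeq2 adjusted p = 4.941e-06). Ccng1, a cyclin that recruits a phosphatase to MDM2, had 44.3, 43.3, 51.7, 95.7 and 124 CPM, so that it was flat until 2.5 h and highest at 6 h (1.64 ± 0.26; DESeq2 adjusted p = 6.3e-05). The remaining brakes peaked earlier: Mdm4, the partner of MDM2 that masks the p53 transactivation domain, peaked at 341 CPM at 2.5 h between 204 CPM at 0 h and 261 CPM at 6 h, and Ppm1d, a phosphatase that reverses damage signals, ranged from 8.79 to 13.4 CPM with its maximum at the same time. All 4 feedback genes had both late libraries above both early ones, against 22.3% of all genes.

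**Figure D2:**
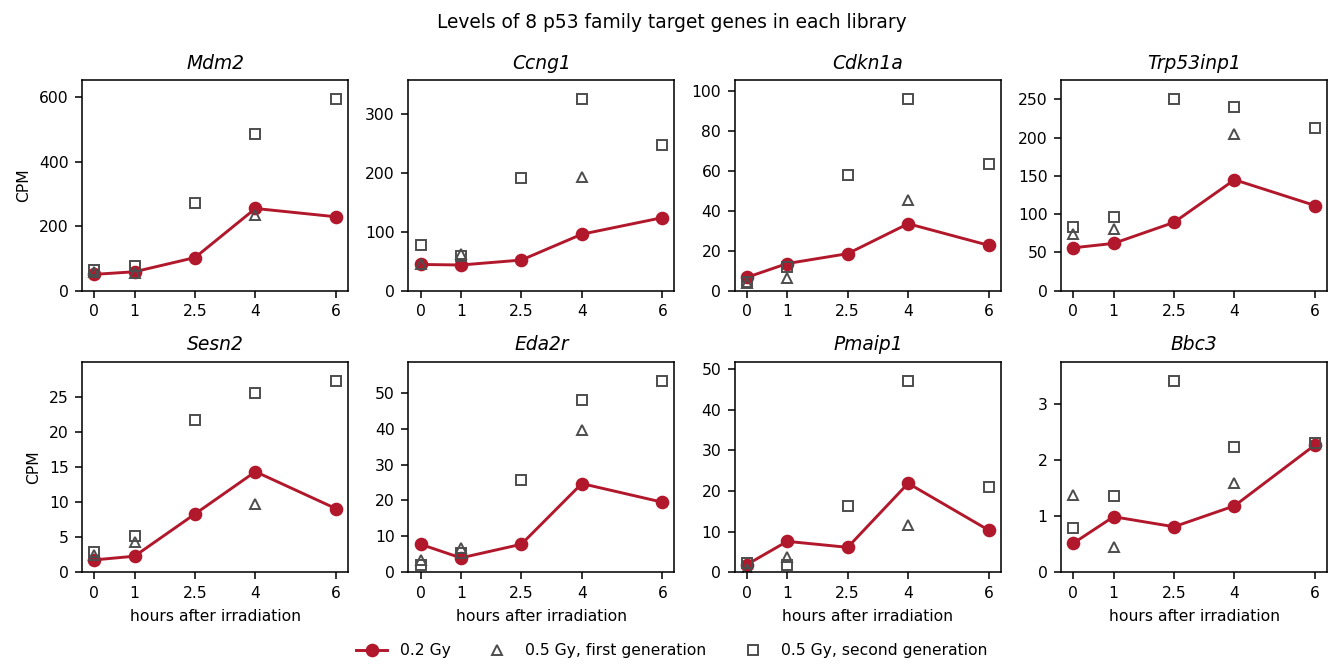
CPM of 8 p53 family target genes in each library against hours after irradiation; filled circles joined by a line are the 0.2 Gy libraries, open triangles and squares the first and second generation of 0.5 Gy, and no error can be drawn with 1 library a point. At 0.2 Gy each of the 8 genes lies highest at 4 or 6 h, and below the second generation of 0.5 Gy at 2.5, 4 and 6 h.

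Of 12 genes of cell cycle arrest, 4 were higher with time at an unadjusted p under 0.05 (2 without the 0 h library), none lower, and DESeq2 called 2. Cdkn1a, the inhibitor of cyclin-dependent kinases and one of the genes with the motif above, had 6.60, 13.5, 18.5, 33.5 and 22.7 CPM, with the 4 h library highest and the libraries of 1 and 2.5 h already about 2 and 3 times as high as that of 0 h (fitted change 1.85 ± 0.58, edgeR adjusted p = 0.449, DESeq2 adjusted p = 0.0426). Sfn, which encodes the checkpoint protein stratifin, was below 1 CPM at 0 and 1 h and reached 2.32, 5.67 and 3.63 CPM (DESeq2 adjusted p = 0.0209). Zmat3, an RNA-binding p53 target, was at 12.5 CPM at 0 h and between 20.7 and 32.6 CPM in every later library, and Btg2, an antiproliferative regulator of mRNA decay, rested at 52.9 to 82.7 CPM up to 2.5 h and reached 160 CPM at 4 h and 107 CPM at 6 h. Psrc1, a spindle protein, was higher at 4 and 6 h (14.2 and 20.9 CPM) than in the earlier libraries, which lay between 5.16 and 10.9 CPM. Gadd45a, Gadd45b and Gadd45g showed no such order, with Gadd45g at 17.1, 31.5, 38.4, 19.6 and 24.6 CPM.

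Genes that restrain growth and metabolism numbered 9, of which 3 were higher with time at an unadjusted p under 0.05 and the same count was called by DESeq2. Sesn2, a stress-induced inhibitor of mTORC1 signalling, stood at 1.75 and 2.28 CPM early and at 8.30, 14.3 and 9.06 CPM from 2.5 h on (2.98 ± 0.90). Trp53inp1, a stress protein that strengthens p53 and autophagy, had 55.9, 61.6, 89.1, 145 and 111 CPM. Both were highest at 4 h, as Mdm2 and Cdkn1a were. Tsc2, a subunit of the complex that switches mTORC1 off, differed in shape, with 184, 140, 246, 306 and 716 CPM and a late maximum carried by the 6 h library (2.07 ± 0.32). Tsc2 was at 246 to 786 CPM in the libraries of 0.5 Gy, so that its early levels at 0.2 Gy were the lowest of the series. Sesn1 and Sesn3, the relatives of Sesn2, stayed at 74.2 to 96.8 CPM and 61.5 to 81.5 CPM.

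Among 11 BH3-only and effector genes 2 were higher with time at an unadjusted p under 0.05 and DESeq2 called 0. Without the 0 h library 0 of 11 passed, and 1 passed without the 2.5, 4 or 6 h library. Pmaip1, which encodes NOXA, had 1.90, 7.59, 6.12, 21.9 and 10.3 CPM. Every later library was above that of 0 h, and the 4 h library was highest (2.39 ± 1.00, edgeR adjusted p = 0.494, DESeq2 adjusted p = 0.117). Bbc3, which encodes PUMA, was scarce, at 0.517, 0.991, 0.812, 1.19 and 2.27 CPM, with its highest value at 6 h. Bax, the pore-forming effector, moved within 41.7 to 56.9 CPM (0.44 ± 0.21), and its partner Bak1 within 2.26 to 4.77 CPM. TPM divides reads by transcript length and was summed over the transcripts of a gene. On this scale Bax had 212 to 255 TPM, Pmaip1 at most 2.63 TPM and Bbc3 at most 0.662 TPM. Reads given to short transcripts weigh more in such a sum, and their part in the value of Bax was not tested. Of the 5 survival genes, Bcl2l10, an oocyte-enriched relative of Bcl2, had 39.4, 24.7, 45.7, 54.7 and 80.8 CPM, and Bcl2l1, which encodes BCL-XL, had 45.5, 37.1, 53.9, 61.2 and 58.7 CPM. All 5 survival genes were lowest at 1 h, against 4840 of the 26926 genes tested. Of the 5, 4 had both late libraries above both early ones, against 22.3% of all genes.

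Downstream of the mitochondria, 4 of 11 apoptosome and caspase genes were higher with time at an unadjusted p under 0.05. In 8 of 11 both late libraries lay above both early ones, against 22.3% of all genes. Without the 6 h library 0 of 11 passed. Cycs, the cytochrome c that builds the apoptosome, stood at 30.1, 25.8, 33.5, 45.7 and 54.1 CPM (1.00 ± 0.25, DESeq2 adjusted p = 0.0273). Casp6, an executioner caspase, was at 82.1 to 85.8 CPM up to 2.5 h and at 132 and 139 CPM after, and Apaf1, the scaffold of the apoptosome, was likewise highest at 6 h, with 22.8 CPM. Casp9, the initiator caspase of the apoptosome, showed no order (24.7 to 33.3 CPM). Of 15 death receptor and adaptor genes 1 passed the unadjusted threshold: Eda2r, a TNF receptor family member and p53 target, had 7.78, 3.99, 7.78, 24.7 and 19.5 CPM (2.07 ± 0.67, edgeR adjusted p = 0.458, DESeq2 adjusted p = 0.0819). Traf3, an adaptor of these receptors, was at 6.75 to 11.5 CPM early and at 20.3 to 27.5 CPM from 2.5 h on. Fas ranged from 1.93 to 7.18 CPM, Tnfrsf10b from 12.7 to 21.2 CPM and Pidd1 from 6.94 to 10.3 CPM, without a common direction.

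Of the 3 family members Trp53 was the steady one. Trp63 had 72.7, 95.8, 116, 127 and 52.4 CPM, so that its level climbed up to 4 h and was lowest at 6 h, and a straight line described it poorly (−0.26 ± 0.53). Trp53 lay within 85.0 to 112 CPM, and Trp73 within 0.553 to 2.67 CPM with its 2 highest values at 4 and 6 h. Per length, Trp53 was the most abundant of the 3 genes in every library (29.8 to 36.2 TPM), followed by Trp63 (3.62 to 9.40 TPM) and Trp73 (0.0425 to 0.367 TPM), and the ranges did not overlap. The values sum all transcripts of a gene, so the TA and ΔN forms of Trp63 are not told apart.

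The 33 late-rising genes were picked by the study on the libraries of 0.5 Gy, and the libraries of 0.2 Gy took no part in that choice. At 0.2 Gy 18 of the 33 were higher with time at an unadjusted p under 0.05 and none lower, DESeq2 called 12, and 24 had both late libraries above both early ones and none below. Without the 0 h library 11 of 33 passed the unadjusted threshold, and 3 of 33 in the 3 libraries from 2.5 h on. Both late libraries were above both early ones in 22.3% of all genes and below in 25.2%. The median difference of the 33 genes between late and early libraries was 1.49 (log2), against −0.02 over all genes tested. They peaked together: 25 of 33 were highest at 4 h, where 20.7% of all genes had their maximum. D630023F18Rik, a gene of unknown function, had the smallest p of the protein-coding genes whose late libraries were both above the early ones, with 1.12, 2.04, 5.17, 30.2 and 34.4 CPM (5.61 ± 0.74, edgeR adjusted p = 0.320). Ankrd65 and Gm648, both without a known function, were below 1 CPM at 0 and 1 h and reached 4.63 and 20.6 CPM at 4 h. Fermt1, which links integrins to the cytoskeleton, stood at 1.15, 1.35, 3.47, 15.3 and 10.3 CPM. Igfals, the carrier protein of circulating insulin-like growth factors, and Tmem140, both shown above with the motif, were highest at 4 h with 4.59 and 8.74 CPM. At the other end of the list Scamp4 (66.2 to 77.1 CPM), Retreg2 (13.2 to 20.7 CPM) and Stx19 (1.52 to 2.99 CPM) were flat. BC049730 and Hist1h2ak swung without order, BC049730 from 13.9 CPM at 4 h to no read at 6 h.

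**Figure D3:**
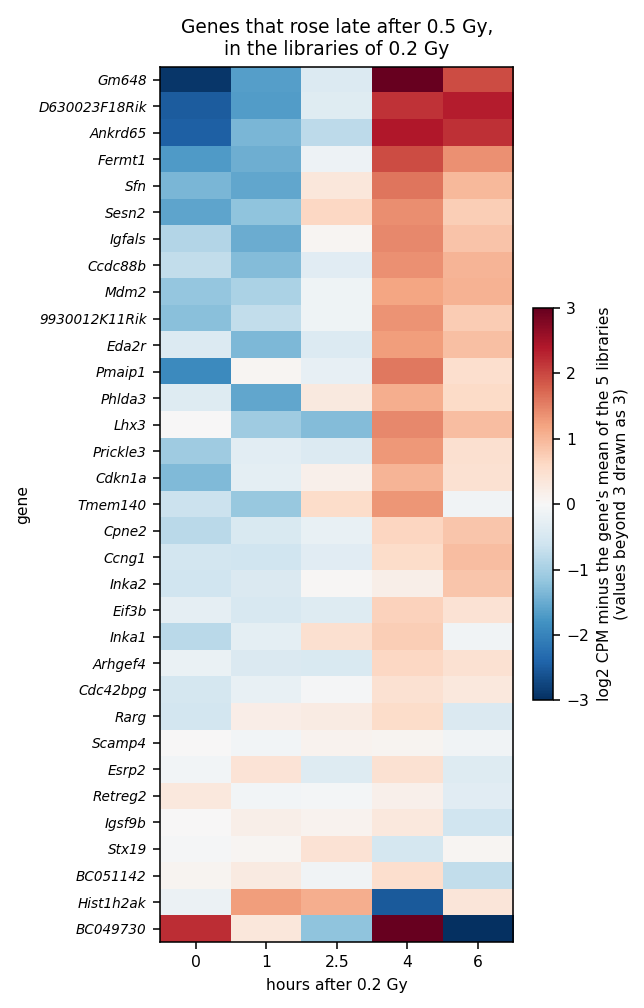
The 33 late-rising genes in the 5 libraries of 0.2 Gy, 1 row per gene and 1 column per time, coloured by log2 CPM minus the gene's mean of the 5 libraries; values beyond 3 in either direction take the end colour. Rows are ordered by the late minus early difference, and the 4 h column holds the maximum of 25 of the 33 genes.

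Genes that the study called at 4 h alone or at 6 h alone after 0.5 Gy followed less. Of its 20 genes of 4 h, 2 were higher with time and 1 lower at an unadjusted p under 0.05, with a median late minus early difference of 0.34 (1 higher without the 1 h or the 4 h library, 5 without the 2.5 h or the 6 h library). The maximum was at 4 h in 10 of 20, against 20.7% of all genes. Slc19a2, a thiamine transporter, had 12.6, 9.27, 14.7, 21.6 and 33.4 CPM (DESeq2 adjusted p = 0.0055) and Dcxr, a sugar reductase, 13.3 to 23.7 CPM. Of its genes of 6 h, 29 were tested, 9 were higher and 1 lower with time at that threshold, DESeq2 called 5, and 12 had their maximum at 6 h, as did 22.1% of all genes.

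The wider lists were counted in the same way, and they share members with the lists above, such as Mdm2 and Cdkn1a. Of 64 p53 targets known from fibroblasts, 12 were higher with time and none lower at an unadjusted p under 0.05, and DESeq2 called 5. The unadjusted counts became 8 and 1 without the 0 h library, 8 and 0 without the 1 h library and 10 and 1 without the 6 h library. Both late libraries were above both early ones in 30 and below in 5, against 22.3% and 25.2% of all genes. The median late minus early difference was 0.25. Of 21 apoptosis genes, 18 had enough reads for the test, 4 were higher and 1 lower (2 and 0 without the 0 h library, 2 and 1 without the 6 h library), and the median was 0.23. Birc6, a giant inhibitor of apoptosis, had the smallest p there (0.67 ± 0.16), at 242, 253, 300 and 329 CPM up to 4 h and 386 CPM at 6 h. Of 37 DNA damage and repair genes tested, 15 had both late libraries above both early ones, against 22.3% of all genes, and the median was 0.20. At the unadjusted threshold 4 were higher and 2 lower. These counts became 1 and 0 without the 0 h library, 2 and 0 without the 1 h library, 4 and 0 without the 2.5 h library and 3 and 0 without the 6 h library. Polk, a translesion polymerase, had 22.5, 19.4, 29.4, 36.8 and 43.2 CPM (DESeq2 adjusted p = 0.0157), and Ercc5, the endonuclease of nucleotide excision repair, 20.8, 22.9, 26.9, 34.7 and 33.2 CPM. Of the 10 kinases upstream of TAp63α, Atr (90.0 to 143 CPM) and Csnk1a1 (207 to 308 CPM) were higher with time at an unadjusted p under 0.05, while Atm (39.9 to 55.8 CPM) and Chek2 (24.9 to 36.4 CPM) were not. Of these 10 kinases 0 passed without the 0 h library or without the 1 h library.

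**Figure D4:**
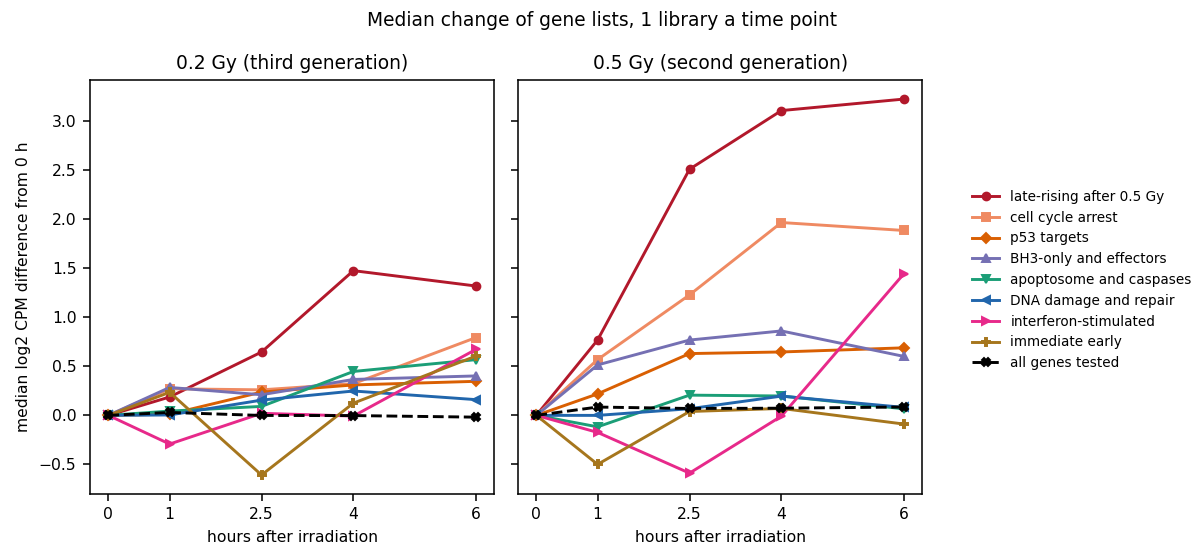
Median log2 CPM difference from 0 h of 8 gene lists and of all genes tested against hours after irradiation, at 0.2 Gy (left) and in the second generation of 0.5 Gy (right); every point rests on 1 library and its 0 h library. The late-rising genes lie at 1.47 at 4 h after 0.2 Gy and at 3.10 after 0.5 Gy, and the immediate early genes dip to −0.61 at 2.5 h after 0.2 Gy. The 0 h library on the right has the fewest reads and the longest fragments of the series.

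The order of events was read from the steps between neighbouring libraries, counting genes that differed by more than 1 on the log2 scale. These counts carry no replicate check. From 0 to 1 h, 5.71% of the genes tested were higher and 4.64% lower. From 1 to 2.5 h, 5.57% were higher and 13.7% lower, which is the step at which the number of detected genes drops. From 2.5 to 4 h the shares were 8.49% and 9.33%, and from 4 to 6 h they were 10.4% and 9.7%. Of the 33 late-rising genes 5 were higher and 3 lower in the first step, 8 and 1 in the second, 16 and 1 from 2.5 to 4 h, and 1 and 5 from 4 to 6 h. Relative to 0 h their median stood at 0.19, 0.65, 1.47 and 1.32 at 1, 2.5, 4 and 6 h. In the second generation of 0.5 Gy the same genes were at 0.77, 2.51, 3.10 and 3.22. The choice of these genes on the 0.5 Gy libraries favours high values at 2.5 h and later there. The 0 h library of that generation had the fewest reads (15709549), the longest fragments (431 bases) and the fewest detected genes (19792) of the series. Over all genes tested, 3530 exceeded it by more than 1 at 1 h, against 1537 for the 0 h library of 0.2 Gy. Of the late-rising genes that were higher than at 0 h by more than 1 at 4 h, 29 of 31 had covered over 0.5 of that difference by 2.5 h after 0.5 Gy, and 6 of 21 after 0.2 Gy. Over all genes tested these counts were 2815 of 4093 and 971 of 1840. The first of each pair comes from the libraries that chose the list, so the counts are a description and no timing difference between the doses is read from them.

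Interferon-stimulated genes had their highest median at 6 h. The median relative to 0 h was −0.29, 0.02, −0.01 and 0.67 at 1, 2.5, 4 and 6 h. Of the 30 genes 18 were highest at 6 h, against 22.1% of all genes. From 4 to 6 h, 8 of 30 were higher by more than 1 and 1 was lower, against 10.4% and 9.7% of all genes. In the earlier steps 2, 6 and 4 of 30 were higher and 4, 2 and 5 lower by more than 1. Over the whole course 6 of 30 were higher with time at an unadjusted p under 0.05, none lower, and DESeq2 called 4: Rtp4, Ifit1, Iigp1 and Usp18. Rtp4, a receptor chaperone, had 7.38, 11.2, 15.4, 18.3 and 30.6 CPM and was higher at every step. Ifit1, which binds foreign RNA, was at 0.402 to 1.17 CPM up to 2.5 h and at 4.33 and 7.22 CPM after. Iigp1, an interferon-induced GTPase, reached 47.3 CPM at 6 h from 6.53 to 15.7 CPM before, and Usp18, which trims ISG15 from proteins, 10.97 CPM from 2.43 to 4.52 CPM. Isg15 itself (1.51 to 3.59 CPM) and Ifit3 (0.259 to 3.83 CPM) had low levels and were not among these calls. Without the 6 h library 2 of 30 pass the same threshold.

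Immediate early genes, the transcription factors switched on within minutes by growth signals and by handling of tissue, were lowest at 2.5 h in 12 of 19 cases, against 19.3% of all genes. Fos had 21.2, 39.6, 9.56, 61.4 and 42.2 CPM, Jun 54.5, 80.7, 33.3, 86.1 and 82.9 CPM, and Egr1 36.5, 40.7, 23.9, 73.7 and 80.1 CPM. All 3 genes were thus lowest at 2.5 h and about as high at 1 h as at 0 h or higher. In 16 of 19 genes both late libraries lay above the 2.5 h library and in none below, against 32.8% and 32.5% of all genes. Each of these differences rests on the lone 2.5 h library.

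Of the 22 oocyte genes, 4 were highest and 9 lowest at 6 h. Gdf9 and Bmp15, growth factors secreted by oocytes of growing follicles, stood at 326, 268, 353, 404 and 554 CPM and at 50.4, 24.7, 30.3, 68.0 and 140 CPM, both with the 6 h library highest. Oosp1, a secreted protein of the oocyte, did the same (42.6 CPM at 6 h, 7.11 to 19.8 CPM before). Sohlh1 and Sohlh2, transcription factors of primordial oocytes, stood at 116, 91.4, 87.2, 97.9 and 43.2 CPM and at 65.2, 63.2, 60.4, 61.1 and 36.5 CPM, both lowest at 6 h. Figla, Ddx4, Dazl, Kit, Lhx8, Nobox and Dppa3 were lowest at 6 h too, and over all genes 22.5% had their minimum and 22.1% their maximum there. Trp63, described above, shares this low level at 6 h. By the trend test 5 of the 22 were higher and 2 lower at an unadjusted p under 0.05 (2 and 2 without the 1 h library, 3 and 2 without the 4 h library, 2 and 0 without the 6 h library), and the summed level at 6 h, 10107 CPM, was within the range of the other libraries.

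The 3 libraries with like fragment lengths allowed the response after 2.5 h to be viewed apart from the early libraries. The 4 and 6 h libraries were set against the 2.5 h library in a fit of all 13 libraries. In it the spread is shared with the other groups, and the lone 2.5 h library is taken to vary as they do. At 0.2 Gy the libraries of 4 and 6 h formed 1 group and those of 0 and 1 h another. Differences between the times within a group therefore count as spread. Of 31254 genes tested edgeR called 1 (0.0032%), and at an unadjusted p under 0.05, 645 were higher (2.06%) and 576 lower (1.84%). DESeq2 called 33 higher (0.106%) and 16 lower (0.0512%). The called gene was Gm8399, a processed pseudogene, with 112, 57.9, 67.6, 0.518 and 0.598 CPM (−6.91, adjusted p = 0.00238). Reads of such a copy can be shared with its parent gene, the level in 0.5 Gy varied from 0.645 to 162.6 CPM, and it was not called without the 6 h library. With the generation kept as a replicate block 2 genes were called, Gm8399 and Xdh, a purine-degrading enzyme at 48.1 CPM at 2.5 h and at most 1.67 CPM in the other libraries of 0.2 Gy.

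Late-rising genes were higher after 2.5 h in this comparison too: 10 of 33 at an unadjusted p under 0.05 and none lower, 22 with both late libraries above the 2.5 h library (32.8% of all genes) and 3 with both below (32.5%), with a median difference of 0.94. Mdm2 was higher by 1.24 ± 0.40, Ccng1 by 1.09 ± 0.40, Eda2r by 1.51 ± 0.49 and D630023F18Rik by 2.64 ± 0.80, and DESeq2 called D630023F18Rik (adjusted p = 0.0434) and Gm648 (adjusted p = 0.031) among them. Cdkn1a gave 0.60 ± 0.56 and Pmaip1 1.39 ± 1.02, each somewhat larger than its SE, and neither was called by either tool. The median difference was 0.05 for p53 targets, 0.06 for apoptosis genes and 0.02 for DNA repair genes.

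The most prominent genes of this comparison were not p53 targets. Hbb-bs, the adult β-globin of red blood cells, had 894, 948, 381, 1824 and 1091 CPM, and Hbb-bt 69.6, 79.6, 26.4, 241 and 109 CPM. In both genes the 2.5 h library was lowest and the 4 h library highest (late against 2.5 h 1.94 ± 0.31 and 2.73 ± 0.47, DESeq2 adjusted p = 9.850e-06 and 8.643e-07). The α-globin Hba-a2 was also lowest at 2.5 h, at 323 CPM, and the near-identical copies within each globin pair can exchange reads. Of 9 red blood cell genes tested 5 were higher at an unadjusted p under 0.05, against 2.06% of all genes, with Slc4a1, Car1 and Hemgn below 4 CPM throughout. The minimum was at 2.5 h in 6 of the 9, against 19.3% of all genes. The median difference of the 9 genes, 1.94, became 1.05 without the 4 h library. The libraries thus hold different amounts of red blood cell RNA, and in 0.5 Gy the level of Hbb-bs ranged from 1048 to 2606 CPM. Nlrp5, which encodes a maternal protein of the oocyte cortex, dipped in the same library, with 2286, 1270, 424, 2078 and 1706 CPM (DESeq2 adjusted p = 0.000784). Chtf8, a subunit of a clamp loader, was at 0.111 CPM at 2.5 h and at 4.47 to 7.22 CPM in the other libraries. In the other direction Pdpn, a membrane glycoprotein, was at 264 CPM at 2.5 h and at 72.5 and 73.7 CPM after (−1.85 ± 0.28), and Map3k7cl went from 2.07 CPM to 0.185 and 0.120 CPM.

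The trends of both doses were then compared through a dose by time term over 28493 genes, in which a negative value means that the trend after 0.2 Gy lies below that after 0.5 Gy. edgeR called 0 genes (0%) with a smallest adjusted p of 0.169. At an unadjusted p under 0.05, 1545 genes had a higher trend at 0.2 Gy (5.42%) and 1236 a lower one (4.34%). DESeq2 called 152 (0.533%) and 49 (0.172%). Target genes lay on the lower side: Cdkn1a with −3.18 ± 1.33 (unadjusted p = 0.0302, adjusted p = 0.461), Eda2r with −2.85 ± 0.98, Pmaip1 with −2.74 ± 1.71, Bax with −1.29 ± 0.46, Mdm2 with −1.12 ± 0.73 and Ccng1 with −1.07 ± 0.66. None of these passed the adjusted threshold with either tool. At 4 h Mdm2 stood at 255 CPM after 0.2 Gy and at 234 and 484 CPM in the first and second generation of 0.5 Gy, so that the lower dose fell between the 2 generations of the higher one, whereas Cdkn1a, with 33.5 CPM, lay below both (45.7 and 95.9 CPM).

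**Figure D5:**
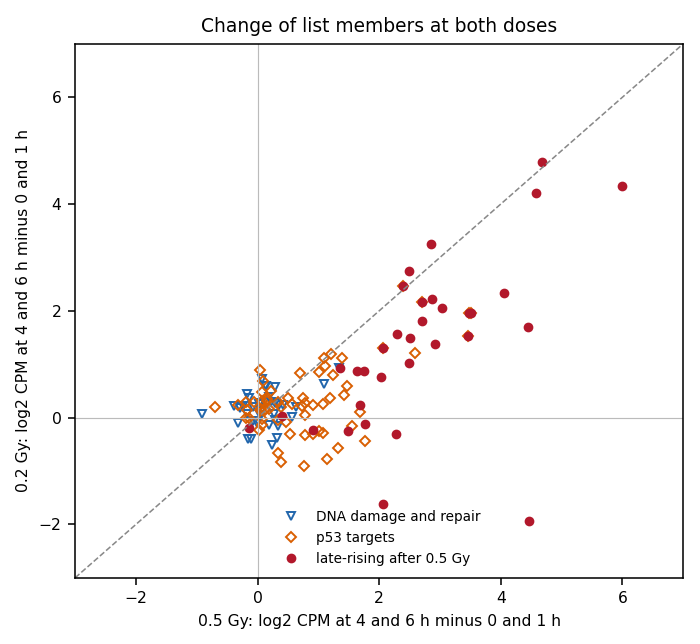
Each point is a gene, with the difference between late (4 and 6 h) and early (0 and 1 h) libraries in log2 CPM after 0.5 Gy on the horizontal and after 0.2 Gy on the vertical axis; the dashed line marks equal change. Of the 33 late-rising genes, which were chosen on the 0.5 Gy libraries, 29 lie below the line, as do 43 of the 64 p53 targets.

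Choosing genes on the 0.5 Gy libraries favours a larger difference there, so the count of 29 of 33 late-rising genes with a smaller difference at 0.2 Gy is a description. For the 64 p53 targets, which were taken from fibroblasts, 43 had the smaller difference at 0.2 Gy, as had 14748 of the 26926 genes tested. Some of these targets, such as Mdm2 and Cdkn1a, are late-rising genes as well, so the counts of both lists are not independent. Some genes had the opposite order. Cycs was higher with time at 0.2 Gy and stood after 0.5 Gy at 62.4 and 64.6 CPM at 0 h against 31.1 CPM at 6 h, with a term of 2.00 ± 0.38 (edgeR adjusted p = 0.265, DESeq2 adjusted p = 0.00141). Tsc2 gave 2.50 ± 0.60 (DESeq2 adjusted p = 0.0311) and Bmp15 2.66 ± 1.05. The 3 genes with the smallest p on this side were Ccdc184, a coiled-coil protein, D6Wsu163e and Bmt2, a regulator of mTORC1. Ccdc184 stood at 0.546, 0.660, 23.6, 22.6 and 57.9 CPM after 0.2 Gy, and at 55.7 and 113 CPM at 0 h against 1.17 CPM at 6 h after 0.5 Gy. D6Wsu163e and Bmt2 were likewise lowest at 0 and 1 h in 0.2 Gy, in the 2 libraries with short fragments (28.6 to 30.9 CPM and 10.3 to 14.2 CPM), and at 54.7 to 124 CPM and 40.6 to 77.1 CPM at 0 and 1 h in 0.5 Gy. On the lower side were Pdzph1 (11.03, 10.1, 3.14, 1.37 and 1.16 CPM), Rhox4b and Apol7b, and the latter 2 had no read after 1 h at 0.2 Gy and belong to gene families whose members can exchange reads.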

How the data were processed

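Estimated counts per transcript (Salmon against Ensembl mouse transcripts, GRCm38) and TPM values, both as deposited by the authors for each of the 13 libraries, were used; reads were 30 bases long. Tables of the authors' own comparisons (fold changes, p-values) and of pooled normalized counts were not used. Estimated counts were summed to 49585 genes (GENCODE, GRCm38), leaving out 402 transcripts without a gene in that annotation, rounded, and tested with edgeR 4.0.16 (quasi-likelihood, TMM, filterByExpr) in R 4.3.3. TPM values were summed per gene. Calls needed an absolute log2 value above 1 together with an adjusted p (Benjamini-Hochberg) under 0.05. The 3 tests were the time trend (5 libraries, 3 residual degrees of freedom), 4 and 6 h against 2.5 h (13 libraries, 5) and the dose by time term (13 libraries, 9). Step differences used log2 CPM with a prior count of 2. DESeq2 1.42.0, limma voom 3.58.1, other scaling, other filters and leaving out each library were the alternatives. Scripts were tested on simulated data. Members and gene lists were chosen with earlier results of these data known. Named genes are a fixed set of p53 and interferon genes, per test and direction the 3 protein-coding genes with the smallest p whose late libraries lie on 1 side, and 2 per list; others were chosen after their values were seen. Deviations of first from second generation of 0.5 Gy were correlated between times over 18351 genes. The r was 0.206 between 0 and 1 h, 0.115 between 0 and 4 h and 0.164 between 1 and 4 h. Such weak correlations do not settle whether the generation numbers pair the libraries. A fit with generation as a block was an alternative. The fits reported hold no block. Each library gives counting error only, and 3 reads bound a count of 0. Whether reads were single or paired is given both ways in the labels.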

Additional observations from a re-analysis of the deposited data

How the results depend on the processing

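The count of the time trend after 0.2 Gy, 0 with edgeR, became 265 with DESeq2 (155 higher, 110 lower) and 3 in the libraries from 2.5 h on (C87977, Zc3h11a, Gm6563), and it ranged from 0 to 1 when 1 library was left out, the 1 being Vmn1r13 without the 2.5 h library. For 4 and 6 h against 2.5 h after 0.2 Gy the single call became 8 with no filter, 49 with DESeq2, 0 with voom, 0 among protein-coding genes, where Gm8399 is not tested, 4 in the 5 libraries of 0.2 Gy, 3 in the 3 later libraries and 2 with the replicate block, with 0 to 1 when a library was left out: 0 without the 6 h library, and Gm10163 in place of Gm8399 without the 4 h library. The 2.5 h library could not be left out. The difference in trend between doses went from 0 to 2 with no filter, 201 with DESeq2 and 0 to 6 over the left-out libraries (6 without the 2.5 h library of 0.2 Gy, 1 without the first 1 h library of 0.5 Gy), and stayed at 0 with the replicate block. With a prior count of 8, step changes after 0.2 Gy, 0 to 1 h became 1683, step changes after 0.2 Gy, 1 to 2.5 h 3260 and step changes after 0.2 Gy, 2.5 to 4 h 3113, and past a threshold of 2 they became 486, 1146, 1248 and, for step changes after 0.2 Gy, 4 to 6 h, 1388. The cause was not tested. In the time trend after 0.2 Gy, signs turned for Mdm4 (−0.12 from 1 h on, which equals leaving out 0 h, and −0.63 from 2.5 h on), for Traf3 (−0.21) and Trp53 (−0.10) from 2.5 h on, and for Trp63 (1.08) without the 6 h library. Over the left-out libraries the time trend after 0.2 Gy, Trp63 ranged from −0.98 to 1.08 and the time trend after 0.2 Gy, Mdm4 from −0.12 to 0.66. The 18 late-rising genes at an unadjusted p under 0.05 were 11 without 0 h, 13 without 1 h, 17 to 20 without a later library and 3 in the 3 libraries from 2.5 h on. With effective-length offsets, which scale each gene by a length that depends on the fragments, 16 were higher and 1 lower. Of other lists, 5 of 12 cell cycle arrest and 6 of 30 interferon-stimulated genes were higher at that threshold. Fewer were higher for BH3-only and effector (0 of 11), apoptosome and caspase (2 of 11) and apoptosis genes (1 of 18, 1 lower). Repair genes gave 2 higher and 0 lower of 37, and p53 targets 10 higher and 2 lower of 64. The 104 list medians recomputed under other scaling moved by less than the spread. With 1 library a time point, a gene whose difference rests on a single library has no check.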

Other observations

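Other stress pathways were counted over time after 0.2 Gy in the same way. Of 12 heat shock genes 2 were higher with time at an unadjusted p under 0.05, the co-chaperone Dnaja1 (346, 345, 424, 406 and 465 CPM) and the mitochondrial chaperonin Hspe1 (120 to 165 CPM), and the count was 0 without the 1 h library. The inducible Hspa1a and Hspa1b stayed at or below 1.44 CPM. Of 12 genes of the endoplasmic reticulum and integrated stress response none passed in either direction. Asns, the asparagine synthetase, had the smallest p, with 65.8 and 65.7 CPM at 0 and 1 h and 44.9 to 48.1 CPM later.

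Granulosa cell genes, which mark the somatic cells around the oocyte, gave 3 of 16 higher with time at an unadjusted p under 0.05 (6 without the 0 h library, 1 without the 1 h library), and DESeq2 called Cyp19a1, the aromatase, at 6.58, 6.03, 9.33, 10.04 and 16.2 CPM. Inha and Inhbb, subunits of inhibin, were highest at 6 h (1537 and 176 CPM) and lowest at 2.5 h (625 and 31.0 CPM), while Kitl, the ligand of the oocyte receptor KIT, was lowest at 6 h (81.1 CPM) and at 155 to 225 CPM before. Stromal genes were 2 of 12 higher, Nr2f2 and Col1a1, with Col1a1 at 325 to 798 CPM. In 9 of 12 the 1 h library was lowest, against 4840 of the 26926 genes tested. Without the 6 h library 1 of 12 passed. Of 7 endothelial genes 1 was higher (Pecam1), of 8 surface epithelium genes none, and of 9 leukocyte genes 1 (Lyz2, 15.7 to 32.8 CPM); the endothelial count was 0 whichever library was left out and the leukocyte count 0 without the 0, 1 or 4 h library. The defining leukocyte gene Ptprc was at 5.43 to 7.85 CPM.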
